A study of Mus musculus with 2 samples.

Results

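The 53 genes described here act in mitosis: the cyclins and kinases that start it, the spindle and its checkpoint, the kinetochores, the condensin complex that compacts chromosomes, and the proteins that cut the cell apart. They are a list made by function, with earlier results of these data known, and were matched by Entrez Gene number to deposited RNA-seq tables of mouse dendritic cells, the cells that take up antigen and present it to T cells. All 53 were found among the 18090 gene entries of the 2 libraries. Bone marrow of C57BL/6 mice was cultured for 6 days with the growth factors GM-CSF (10 ng/ml) and IL-4 (1 ng/ml), and 1 library was made of immature and 1 of mature cells. The protocol gives lipopolysaccharide (LPS, a bacterial cell wall component) at 100 ng/ml for 24 h, with GM-CSF and IL-4 still present, to "sample 2", taken here to mean the mature cells. Both cell preparations were sorted on surface CD86 and I-Ab, an MHC class II molecule. The labels do not say how many animals were pooled, which gates were set, or whether the immature cells stayed in culture for the same extra time.

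Cells in culture divide by building up mitotic proteins during G2 and destroying many of them at the end of mitosis. Cyclin-dependent kinase 1, bound to its cyclins, drives entry, and the anaphase-promoting complex marks cyclins and securin for destruction so that chromosomes separate. Most of these genes are transcribed mainly in G2 and M and are silent in resting cells, so their RNA is widely used as a sign of dividing cells. In marrow cultures with GM-CSF, precursors divide while they differentiate, and dendritic cells that have fully matured divide little.

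The immature library held 7.56 M uniquely placed reads and the mature library 8.07 M. Levels are in RPKM, reads per kilobase of the gene model and per 1000000 reads counted to genes, and 3 reads on a model of 1 kilobase stood at 0.397 RPKM (immature) and 0.372 RPKM (mature). With 1 library of each state there was no replicate error and no test was made, so every difference is one between these 2 libraries. Fold differences are plain RPKM ratios with the exact 95% counting interval in parentheses. They hold only the error of counting, and without molecular identifiers some reads can be copies of 1 molecule. No label says that the libraries came from separate cultures or animals. A gene was called lower or higher where log2 of (mature RPKM + 1) over (immature RPKM + 1) reached 2-fold, a scale that understates the difference of low genes.

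Every one of the 53 mitosis genes was at least 2-fold lower in the mature library, where 11.3% of the 11547 genes reaching 1 RPKM in either library were. None, 0 of 53, was higher, against 9.05% of the same genes. The counting interval lay wholly beyond 2-fold lower for all 53, against 8.67% of the same genes. At 10-fold the count was 42 of 53, against 2.31%, and 5 members differed by less than 5-fold. The median log2 difference of the members was -3.19, with a range from -5.22 to -1.32, beside 0.026 over all compared genes. Of the 100 genes with the lowest log2 difference in the whole table, 28 were members. In bulk RNA, fewer dividing cells and less of each RNA per dividing cell cannot be told apart.

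All members passed the filter of 1 RPKM through the immature library, where each reached at least 5 RPKM. Their median level was 22.8 RPKM there and 1.04 RPKM in the mature library. In the mature library 27 of 53 reached 1 RPKM and 7 reached 5 RPKM, and 2 members, Kif2c and Stmn1, had 0 reads. Together the members took 38712 reads or 0.512% of the immature library (Wilson 95% interval 0.507 to 0.517) and 2729 reads or 0.0338% of the mature library (0.0326 to 0.0351). That share was 15.1-fold lower (14.6 to 15.7) in the mature library. Mki67 alone held 23.9% of the members' immature reads and 15.5% of their mature reads, and without it the share was 13.6-fold lower.

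**Figure D1:**
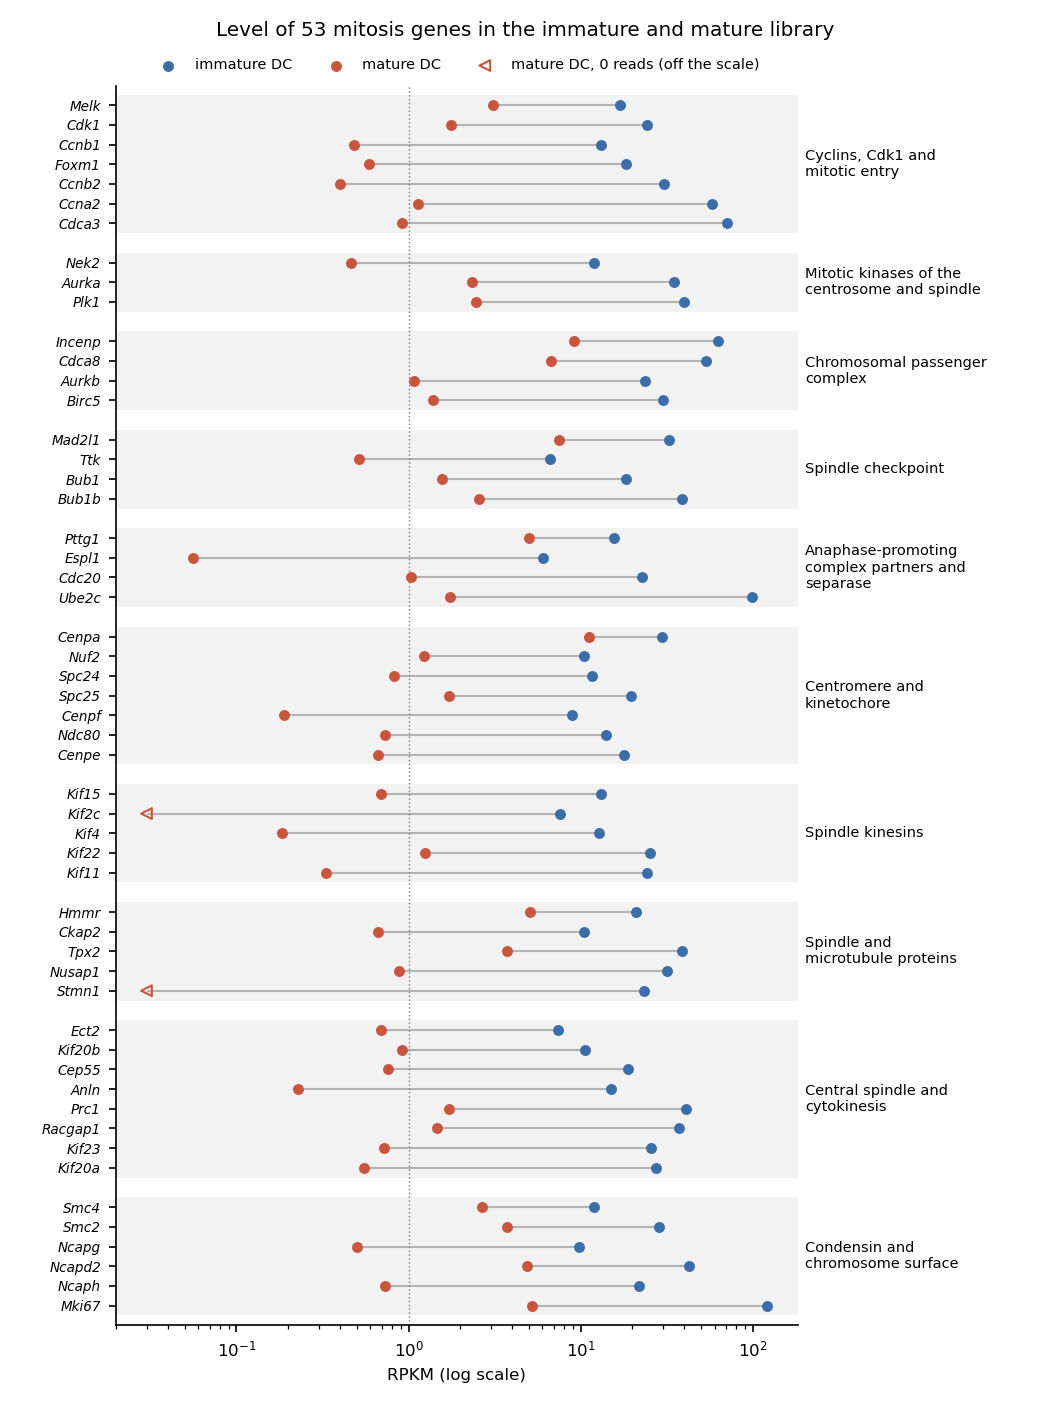
RPKM on a log axis for each of the 53 genes, by role, in the immature library (blue) and the mature library (red), with a line joining the values of a gene. Every red point lies left of its blue point, 26 of the red points lie below the dotted line at 1 RPKM or off the scale, and open triangles mark the 2 genes with 0 mature reads.

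Markers of the labelled cell type and of other marrow cells were read in the same libraries, where 11.3% of all compared genes were lower and 9.05% higher. All 13 dendritic cell markers had reads in both, 5 higher and 1 lower in the mature library. The lower one was Itgax, at 407 and 148 RPKM, 2.75-fold lower (2.66 to 2.84). Cd74 stood at 5173 and 2910.0 RPKM and H2-Aa at 1159 and 1260.4 RPKM, while Flt3 was low at 0.722 and 3.28 RPKM. Cd86, used in the sort, was 5.82-fold higher (5.29 to 6.4) in the mature library. H2-Ab1, the gene of the other sort marker, I-Ab, was 1.28-fold lower (1.25 to 1.32), at 1256 and 978 RPKM. Neutrophil and granulocyte precursor markers were lower as well, 11 of 14. Their summed level went from 8324 RPKM (immature) to 2039.9 RPKM (mature), and 0 of 14 lacked reads in either. Their most abundant genes in the immature library, S100a9 and S100a8, had ratios of 6.89 (S100a9) and 7.96 (S100a8), immature over mature. Mmp8, the most abundant in the mature library, differed less, with 1025 and 770 RPKM and a ratio of 1.33. The median log2 difference of this list was -3.03, beside -3.19 for the mitosis genes. Among its genes of early granules, named after their values were seen, Mpo was 27.8-fold lower (18.8 to 42.9) and Elane was 22.1-fold lower (15 to 33.8). Ctsg was 20.5-fold lower (8.48 to 64.6) and Prtn3 was 8.28-fold lower (5.61 to 12.7). These ratios lie in the range of the mitosis genes, but the list was not uniform. On the log2 scale, 3 of its genes, Lcn2, Mmp8 and Gfi1, lay within 2-fold. Of the 7 eosinophil, basophil and mast cell markers, 5 were lower, from a summed 382 to 11.6 RPKM, led by Ear2 and Prg2, and Fcer1a and Ms4a2 were not listed in either library. Macrophage and monocyte markers, led by Lyz2 and Cd68, were lower in 5 of 10 cases, from a summed 10065 to 2272 RPKM. Stem and early progenitor markers were lower in 3 of 8 cases and higher in 1 (Flt3, also a dendritic cell marker). Their median log2 difference was 0.081. Hoxa9, too low to be compared, had 2 immature and 0 mature reads. Their summed level went from 63.0 to 32.4 RPKM, led by Cd93 (24.4 and 6.85 RPKM) and Cd34 (20.0 and 4.16 RPKM). Erythroid and lymphoid markers were near 0. The most abundant by the sum of both libraries were Hbb-b1 at 1.27 and 0.198 RPKM and Klf1 at 0.172 and 0.0807 RPKM among the erythroid ones, and Cd3g at 0.775 and 1.45 RPKM and Cd8a at 0.929 and 0.95 RPKM among the lymphoid ones. Hba-a1 and Car1 were not listed in either library, and Cd4 had 0 immature reads. The part of these other cells in the level of the mitosis genes was not tested.

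The cyclins and the genes of mitotic entry were lower in the mature library without exception, 7 of 7. Ccna2 (Entrez Gene 12428), the cyclin of S phase and early mitosis, had 1233 immature and 26 mature reads, or 57.7 and 1.14 RPKM, and was 50.6-fold lower (34.4 to 77.8). Cdk1 (12534), the kinase that the mitotic cyclins activate, had 525 immature and 41 mature reads, or 24.3 and 1.78 RPKM, and was 13.7-fold lower (9.94 to 19.3). The interval of the kinase thus lay below that of the cyclin A gene. The B-type cyclins that carry Cdk1 through mitosis stood on few mature reads. Ccnb1 had 230 immature and 9 mature reads and was 27.3-fold lower (14.1 to 60.4), and Ccnb2 had 356 immature and 5 mature reads and was 76-fold lower (32.3 to 236).

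Cdca3, which promotes the destruction of the Cdk1 inhibitor Wee1, had the lowest log2 difference of all members. It had 795 immature and 11 mature reads, or 70.6 and 0.916 RPKM, and was 77.1-fold lower (42.9 to 155). Foxm1, the transcription factor that switches on many G2 and M genes, had 610 immature and 21 mature reads, or 18.4 and 0.592 RPKM, and was 31-fold lower (20.1 to 50.5). Melk, a kinase abundant in dividing progenitors, differed least in this role. It had 373 immature and 73 mature reads, or 16.9 and 3.1 RPKM, and was 5.45-fold lower (4.23 to 7.11).

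The kinases of the centrosome and spindle showed differences of similar size, 3 of 3 lower. Plk1, which acts from mitotic entry to cytokinesis, had 662 immature and 44 mature reads, or 39.7 and 2.47 RPKM, and was 16.1-fold lower (11.8 to 22.3). Aurka, the kinase of spindle poles, had 505 immature and 36 mature reads, or 35 and 2.34 RPKM, and was 15-fold lower (10.7 to 21.6). Nek2, which separates the centrosomes, had 292 immature and 12 mature reads, or 12 and 0.462 RPKM, and was 26-fold lower (14.6 to 50.8). The 3 intervals overlap, and the order of these kinases was not tested.

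The chromosomal passenger complex, which corrects faulty attachments of chromosomes to the spindle, split into pairs. Its kinase Aurkb had 348 immature and 17 mature reads, or 23.5 and 1.08 RPKM, and was 21.9-fold lower (13.5 to 37.9). Its subunit survivin, encoded by Birc5, had 775 immature and 38 mature reads, or 30.0 and 1.38 RPKM, and was 21.8-fold lower (15.7 to 31). The scaffold gene Incenp was among the 5 members with most immature reads, with 1523 immature and 238 mature reads, or 62.6 and 9.16 RPKM, and was 6.83-fold lower (5.95 to 7.86). Cdca8, which encodes borealin, had 654 immature and 88 mature reads, or 53.2 and 6.7 RPKM, and was 7.93-fold lower (6.34 to 10.0). The intervals of Incenp and Cdca8 overlap each other and lie below those of Aurkb and Birc5, so the RNAs of 1 complex differed unequally.

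The spindle checkpoint holds anaphase back until every chromosome is attached, and 4 of 4 of its genes were lower. Bub1b, which encodes the checkpoint protein BubR1, had 1083 immature and 76 mature reads, or 39 and 2.57 RPKM, and was 15.2-fold lower (12 to 19.5). Bub1, its kinase relative, had 602 immature and 55 mature reads, or 18.4 and 1.57 RPKM, and was 11.7-fold lower (8.86 to 15.7). Ttk, the kinase that sets off the checkpoint, was low in both, with 145 immature and 12 mature reads, or 6.6 and 0.512 RPKM, and was 12.9-fold lower (7.16 to 25.5). Mad2l1 stood apart within this role. This gene of the protein that inhibits Cdc20 kept 32.6 and 7.47 RPKM, on 425 immature and 104 mature reads, and was 4.36-fold lower (3.51 to 5.46), below the intervals of the other 3.

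The partners of the anaphase-promoting complex differed over a wide range. Ube2c, the ubiquitin-conjugating enzyme that works with the complex, had 697 immature and 13 mature reads, or 99 and 1.73 RPKM, and was 57.2-fold lower (33.2 to 108). Its activator Cdc20 had 309 immature and 15 mature reads, or 22.8 and 1.04 RPKM, and was 22-fold lower (13.1 to 39.8). Espl1, which encodes separase, the protease that cuts cohesin, had the highest plain ratio of the members with mature reads, but on 3 of them. It had 303 immature and 3 mature reads, or 6.04 and 0.056 RPKM, and was 108-fold lower (36.5 to 526). Pttg1, which encodes securin, the inhibitor of separase, was close to the other end, with 201 immature and 69 mature reads, or 15.7 and 5.03 RPKM, and was 3.11-fold lower (2.35 to 4.15). Separase and securin therefore differed by amounts whose intervals do not meet.

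The core subunits of the anaphase-promoting complex were not among the genes called lower. Of 13 compared, 13 lay within 2-fold, as did 9192 of all 11547 compared genes, with a median log2 difference of -0.16. Examples named after their values were seen are Cdc27, with 14.5 and 15.8 RPKM, and Anapc2, with 39.2 and 33 RPKM. In the mature library the core genes stood between 7.25 RPKM (Anapc10) and 43.3 RPKM (Anapc5), where Ube2c and Cdc20 stood at 1.73 and 1.04 RPKM.

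Kinetochores link chromosomes to spindle fibres, and 7 of 7 of their genes on the list were lower. The 4 subunits of the Ndc80 complex, which binds the fibres, stood between 10.5 and 19.6 RPKM in the immature library and between 0.73 and 1.71 RPKM in the mature library. Ndc80 had 234 immature and 13 mature reads and was 19.2-fold lower (11 to 36.6), and Nuf2 had 191 immature and 24 mature reads and was 8.49-fold lower (5.54 to 13.6). Spc24 was 14-fold lower (7.13 to 31.4) and Spc25 was 11.5-fold lower (6.87 to 20.5). The 4 intervals overlap, and whether the ratios of these subunits differ from each other was not tested. The reads of Nuf2 covered little of its model, as given with the coverage values.

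The motor gene Cenpe, which carries chromosomes along the spindle, had 1049 immature and 42 mature reads, or 17.8 and 0.666 RPKM, and was 26.7-fold lower (19.6 to 37.2). Cenpf, which encodes a large outer kinetochore protein, had 750 immature and 17 mature reads, or 8.91 and 0.189 RPKM, and was 47.1-fold lower (29.2 to 81.3). Cenpa, the histone variant that marks the centromere, had the smallest difference of all 53 members. It had 299 immature and 121 mature reads, or 29.6 and 11.2 RPKM, the highest mature level of the members, and was 2.64-fold lower (2.13 to 3.29).

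Kinesins are motors that move along microtubules, and 5 of 5 of the spindle kinesins were lower. Kif11, the motor that pushes spindle poles apart, had 892 immature and 13 mature reads, or 24.3 and 0.332 RPKM, and was 73.2-fold lower (42.6 to 138). Kif15, which can share that task, had 480 immature and 27 mature reads, or 13.1 and 0.691 RPKM, and was 19-fold lower (12.9 to 29.1). The intervals of these motors do not overlap. Kif22, a motor on chromosome arms, had 399 immature and 21 mature reads, or 25.3 and 1.25 RPKM, and was 20.3-fold lower (13.1 to 33.1). Kif4, which limits microtubule growth on chromosomes and at the spindle midzone, had 453 immature and 7 mature reads and was 69.1-fold lower (33.3 to 173). Kif2c, which takes microtubules apart at centromeres, had 164 immature and 0 mature reads. Against a floor of 3 reads in the mature library it was at least 58.4-fold lower, and the exact interval starts at 46.9-fold.

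Among the spindle and microtubule proteins, 5 of 5 genes were lower over a wide range. Tpx2, which activates Aurka at the spindle, had 1278 immature and 131 mature reads, or 38.7 and 3.72 RPKM, and was 10.4-fold lower (8.69 to 12.6). Nusap1, a bundler of spindle fibres, had 710 immature and 21 mature reads, or 31.7 and 0.879 RPKM, and was 36.1-fold lower (23.4 to 58.7). Ckap2 had 207 immature and 14 mature reads, or 10.5 and 0.667 RPKM, and was 15.8-fold lower (9.2 to 29.4). The low end of the range was Hmmr, which encodes a hyaluronan receptor that also sits on the spindle, with 618 immature and 160 mature reads, or 20.9 and 5.06 RPKM, 4.12-fold lower (3.46 to 4.94). At the other end, Stmn1, a protein that takes up free tubulin, had 0 mature reads against 190 immature ones. At the floor of 3 reads it was at least 67.6-fold lower, with the exact interval starting at 54.4-fold.

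All 8 genes of the central spindle and of cytokinesis were lower, and all of them by at least 10-fold. Prc1, which bundles the fibres of the midzone, had 941 immature and 42 mature reads, or 41 and 1.71 RPKM, and was 23.9-fold lower (17.6 to 33.4). Kif23 and Racgap1 encode the partners of the centralspindlin complex. Kif23 had 669 immature and 20 mature reads and was 35.7-fold lower (22.9 to 58.8), and Racgap1 had 856 immature and 36 mature reads and was 25.4-fold lower (18.2 to 36.5), with intervals that overlap. Ect2, the exchange factor that this complex recruits to activate RhoA, had 228 immature and 23 mature reads, or 7.36 and 0.696 RPKM, and was 10.6-fold lower (6.88 to 17). The kinesin gene Kif20a had 745 immature and 16 mature reads, or 27.5 and 0.554 RPKM, and was 49.7-fold lower (30.4 to 87.4). Its relative Kif20b had 444 immature and 41 mature reads, or 10.6 and 0.913 RPKM, and was 11.6-fold lower (8.38 to 16.3), and the intervals of this pair do not overlap. Anln, which encodes the ring protein anillin, had 617 immature and 10 mature reads and was 65.9-fold lower (35.6 to 138), and Cep55, which brings in the machinery of final separation, had 396 immature and 17 mature reads and was 24.9-fold lower (15.3 to 43.1).

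Condensin I is built of the ring proteins Smc2 and Smc4 and the subunits encoded by Ncapd2, Ncapg and Ncaph. Ncaph had 448 immature and 16 mature reads and was 29.9-fold lower (18.2 to 52.7), and Ncapg had 275 immature and 15 mature reads and was 19.6-fold lower (11.7 to 35.4). The ring genes differed less, though the reads of Smc4 covered little of its model, as given with the coverage values. Smc2 had 1157 immature and 160 mature reads, or 28.7 and 3.71 RPKM, and was 7.72-fold lower (6.54 to 9.16), and Smc4 had 371 immature and 89 mature reads, or 12 and 2.69 RPKM, and was 4.45-fold lower (3.52 to 5.67). Ncapd2, with 1456 immature and 178 mature reads, or 42.5 and 4.87 RPKM, was 8.73-fold lower (7.47 to 10.3), which lies with Smc2 and below Ncapg and Ncaph. The ring proteins also serve condensin II, whose own subunit genes were named after their values were seen. Ncapg2 was 4.96-fold lower (4.02 to 6.17), Ncapd3 was 2.53-fold lower (2.15 to 2.99) and Ncaph2 was 1.36-fold lower (1.25 to 1.49).

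Mki67, which encodes the Ki-67 protein that coats mitotic chromosomes and is the usual stain for dividing cells, was the most abundant member per length in the immature library. It had 9259 immature and 424 mature reads, or 121 and 5.19 RPKM, and was 23.3-fold lower (21.1 to 25.8). Its interval is the narrowest relative to its value, since it rests on the most reads.

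**Figure D2:**
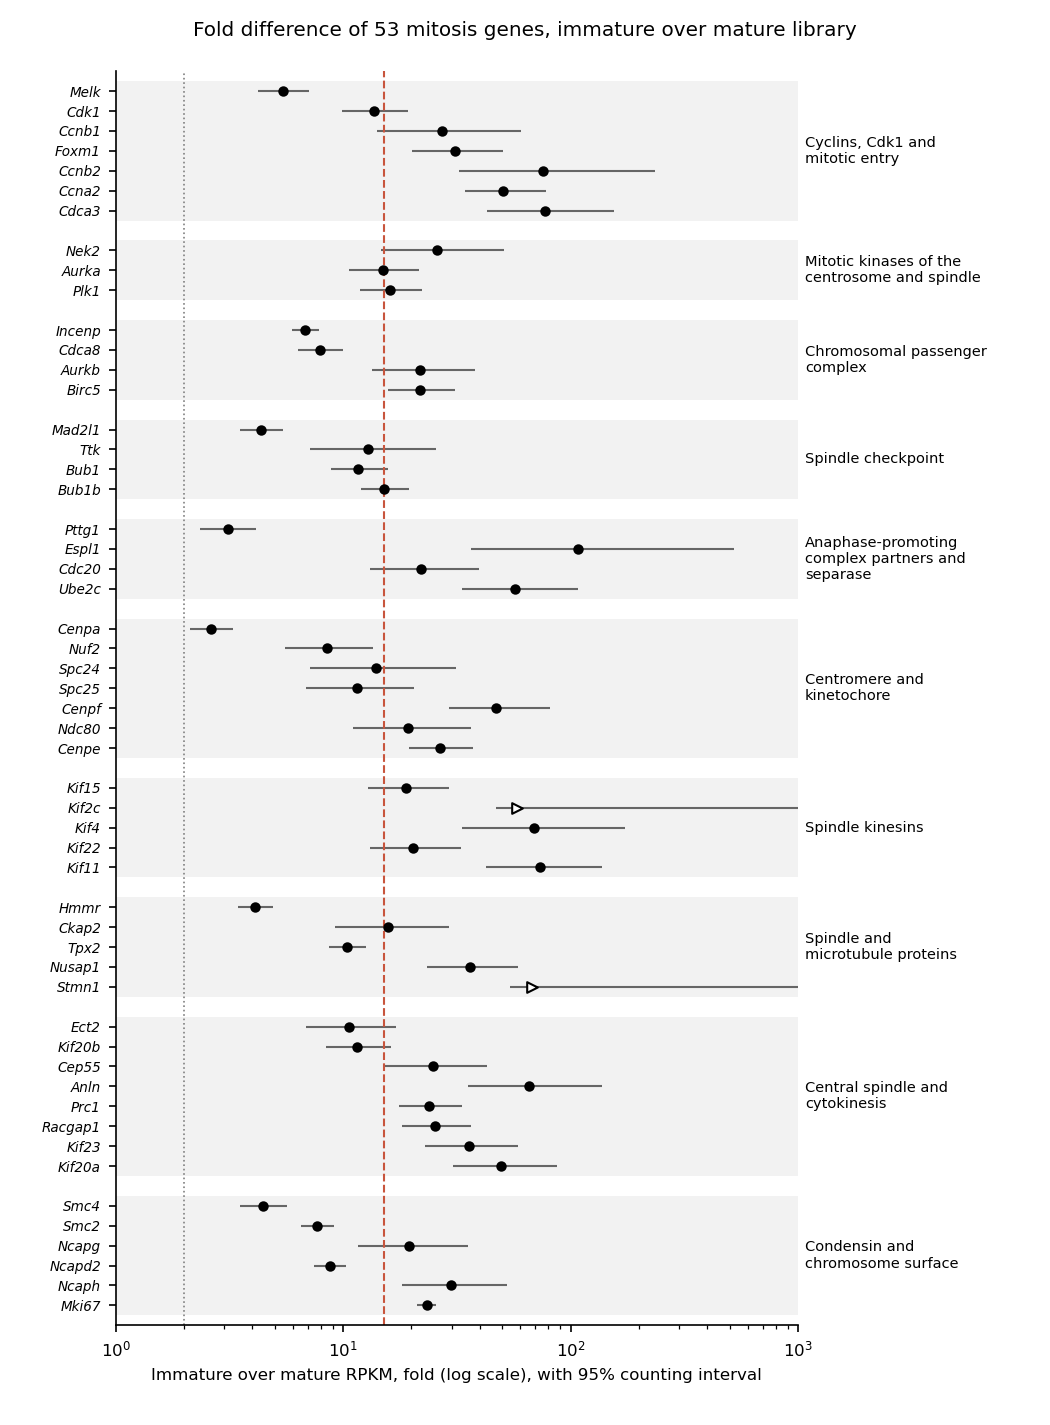
Immature over mature RPKM for each gene on a log axis, by role, with the exact 95% counting interval as a line. The dashed line is the ratio of the summed share of reads, 15.1-fold, the dotted line is 2-fold, and open triangles with lines running off the axis are bounds for the 2 genes with 0 mature reads, and all 53 intervals lie to the right of 2-fold.

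The members did not differ by a common factor. The interval of 19 members held the ratio of the summed share, 15.1-fold, that of 22 lay above it and that of 12 below it. The 7 genes that kept at least 5 RPKM in the mature library were Cenpa, Incenp, Mad2l1, Cdca8, Mki67, Hmmr and Pttg1. All but Mki67 were among those below the summed ratio. Over the 53 genes, the rank correlation of the fold with the immature RPKM was 0.00798 and with the length of the gene model 0.0913, both given as a description across genes of the same 2 libraries. With the mature RPKM, which is the denominator of the fold, it was -0.75. The rank correlation of the members' immature and mature levels was 0.594, beside 0.869 over all compared genes.

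A limit of these values is where the reads lie on the genes. Genes with 1 read had a median of 49 bases covered, which is taken as the read length, and reads of that length placed at random were used to work out the covered length to expect. For 4 members the deposited coverage was under 50% of that in a library. Hmmr had 85.1% of its model covered in the immature library but 26.3% in the mature library, where its 160 reads would cover 86.5%. Smc2, with as many mature reads on a longer model, was covered over 64.2%. So the mature reads of Hmmr lay on a small part of the model, and its 4.12-fold difference is uncertain. Nuf2 was covered over 33% and 10.8%, Smc4 over 27.1% and 24.9%, and Stmn1 over 27.9% in the immature library. Without these 4 members, 49 of 49 were still lower and the median log2 difference was -3.25.

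**Figure D3:**
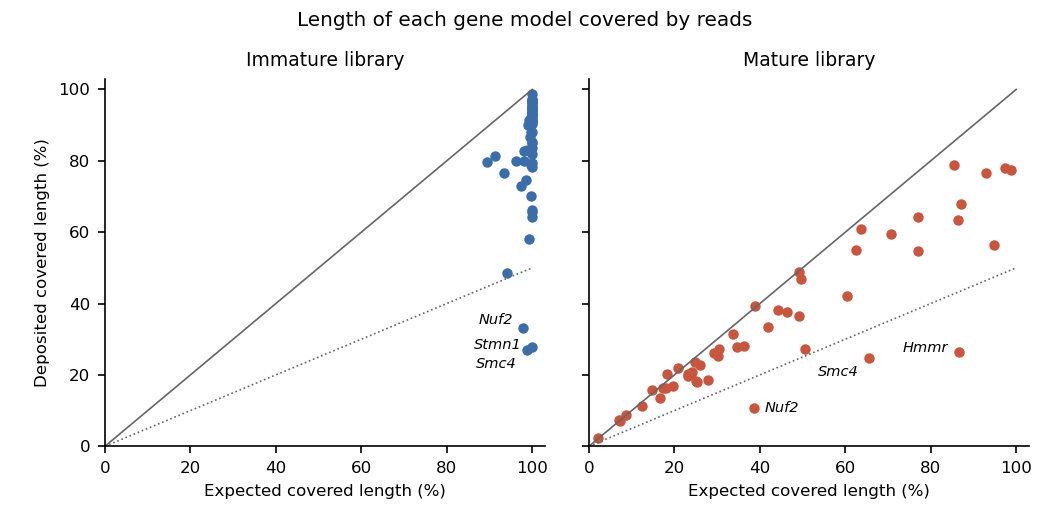
Percent of each gene model covered by reads, as deposited, against the percent expected for reads of 49 bases placed at random, for members with reads in the immature (left) and mature (right) library. The solid line is equality and the dotted line is 50% of the expected value, and Nuf2, Stmn1, Smc4 and Hmmr, named where they fall below the dotted line, are the 4 thinly covered members.

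Promoters were examined because the members were lower together. Many G2 and M genes are held silent in resting cells by the DREAM complex, which binds an element called CHR, and are activated through CCAAT boxes bound by NF-Y. RefSeq promoters of assembly GRCm38.p6, which is not the build of the deposited tables, were found for 44 of 53 members at 47 start sites. Ccna2, Foxm1, Aurkb, Incenp, Spc24, Tpx2, Stmn1, Kif20a and Smc4 had no entry. The 5 promoters below are those of the members with both elements and the lowest log2 differences, and Cenpa, added after its value was seen, is the member with the smallest difference. Each line gives the 250 bases before the start, 5′ to 3′ on the gene's strand. Capitals mark matches to TTTGAA or TTCGAA (CHR type) and to CCAAT, on either strand, so that TTCAAA and ATTGG are matches too.
Ube2c: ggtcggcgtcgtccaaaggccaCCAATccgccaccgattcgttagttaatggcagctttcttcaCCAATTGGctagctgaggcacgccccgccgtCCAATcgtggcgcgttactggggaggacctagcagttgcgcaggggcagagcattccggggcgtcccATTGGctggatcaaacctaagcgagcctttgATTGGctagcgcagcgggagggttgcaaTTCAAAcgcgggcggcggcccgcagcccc
Ccnb2: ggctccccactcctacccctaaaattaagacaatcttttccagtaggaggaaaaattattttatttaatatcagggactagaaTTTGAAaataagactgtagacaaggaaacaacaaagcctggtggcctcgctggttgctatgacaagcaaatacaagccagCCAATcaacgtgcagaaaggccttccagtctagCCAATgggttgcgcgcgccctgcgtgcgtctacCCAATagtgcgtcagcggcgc
Mki67: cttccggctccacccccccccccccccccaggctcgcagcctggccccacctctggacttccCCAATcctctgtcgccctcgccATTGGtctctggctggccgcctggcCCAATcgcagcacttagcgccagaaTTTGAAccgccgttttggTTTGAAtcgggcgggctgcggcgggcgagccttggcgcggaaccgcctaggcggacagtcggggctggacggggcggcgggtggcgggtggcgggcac
Kif11: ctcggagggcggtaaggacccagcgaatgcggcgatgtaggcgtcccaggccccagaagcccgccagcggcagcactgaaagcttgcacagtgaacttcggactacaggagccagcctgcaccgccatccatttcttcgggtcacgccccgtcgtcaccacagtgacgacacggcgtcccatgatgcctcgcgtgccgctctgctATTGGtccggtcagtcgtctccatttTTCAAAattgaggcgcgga
Prc1: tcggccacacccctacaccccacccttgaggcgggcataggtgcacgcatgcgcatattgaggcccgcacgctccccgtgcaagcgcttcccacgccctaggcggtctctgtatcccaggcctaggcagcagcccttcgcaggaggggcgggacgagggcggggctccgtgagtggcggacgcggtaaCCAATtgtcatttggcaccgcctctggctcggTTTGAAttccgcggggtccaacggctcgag
Cenpa: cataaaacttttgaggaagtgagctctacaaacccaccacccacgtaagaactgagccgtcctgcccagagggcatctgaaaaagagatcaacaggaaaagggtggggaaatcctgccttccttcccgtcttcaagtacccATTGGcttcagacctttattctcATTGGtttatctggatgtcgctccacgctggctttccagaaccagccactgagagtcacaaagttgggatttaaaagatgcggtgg
They lie at chr2:164769679-164769928 (plus strand) for Ube2c, chr9:70421555-70421804 (minus strand) for Ccnb2 and chr7:135716380-135716629 (minus strand) for Mki67. The others lie at chr19:37376132-37376381 (plus strand) for Kif11, chr7:80294226-80294475 (plus strand) for Prc1 and chr5:30666636-30666885 (plus strand) for Cenpa. Ube2c, 57.2-fold lower in the mature library, has 1 CHR-type match at bases -29 to -24 before the start and 6 CCAAT matches, of which 2 overlap each other. The start of Prc1 shown is the downstream one of its 2 in the table, the one with both elements. Kif11 has 1 of each, at -19 to -14 and at -45 to -41. The only CHR-type match of Ccnb2 lies farther out than its CCAAT matches, at -167 to -162. Cenpa has 2 CCAAT matches and 0 CHR-type matches in this window. Cdca3, with the lowest log2 difference of all members (-5.22), likewise has CCAAT but 0 CHR-type matches. It is not shown because the 5 were chosen for holding both elements.

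Counted over start sites, 40.4% of the members' starts had a CHR-type match in the 250 bases, against 17.1% of all 32851 starts in the table and 12.5% of the starts of genes compared here. For CCAAT the shares were 70.2%, 33.8% and 35.2%. The starts of the DNA replication list had CCAAT in 52.2% and a CHR-type match in 15.2% of cases. Both elements were found before 34% of member starts, 6.02% of all starts and 4.73% of the starts of compared genes, and before 10.9% of the replication starts. An E2F-type element (TTTGGCGC, TTTCGCGC or TTTCCCGC, either strand) was found before 6.38% of member starts, 3% of the starts of compared genes and 19.6% of the replication starts. The members' CCAAT matches numbered 22 and 23 in the last and the next to last 50 bases, and 9, 9 and 3 in the bins farther out. Their CHR-type matches were spread more widely, with 10 in the last 50 bases and 7 between 150 and 100 bases before the start, and 2 in each of the other 3 bins. Positions are taken from each start, so a site shared by neighbouring starts of a gene, as in Ect2 and Prc1, is counted for each start. A match is a run of letters and not a shown binding site, and the base composition of the sets was not compared.

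Among the members themselves, the elements did not sort the differences far apart. The 18 members with a CHR-type match had a median log2 difference of -3.34, from -5.19 to -2.30, and the 26 without had -3.14, from -5.22 to -1.32. For CCAAT the medians were -3.25 in 31 members with and -3.11 in 13 without. Of the 5 members under 5-fold, looked at after their values were seen, Smc4 had no promoter entry. Cenpa, Pttg1, Hmmr and Mad2l1 held 0 CHR-type matches in this window, as did 26 of all 44 members with promoters. Cdca3, with the lowest log2 difference, was among those 26.

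**Figure D4:**
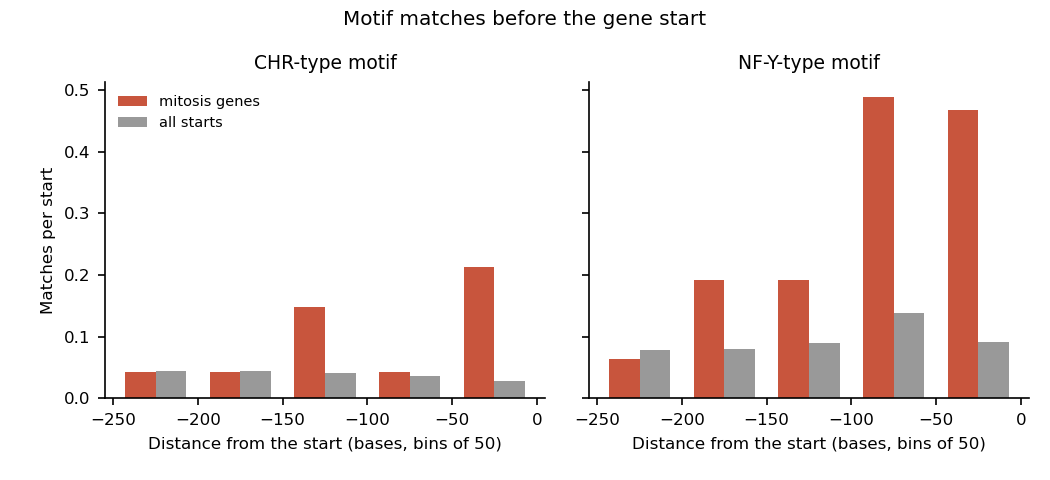
Matches per start site in bins of 50 bases before the start, for the CHR-type motif (left) and the CCAAT box bound by NF-Y (right), in the 47 member starts (red) and all 32851 starts (grey). The members' bars are highest in the 50 bases next to the start for the CHR type, 0.213 against 0.0283 per start, and in the last 100 bases for CCAAT.

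Mitosis genes outside the 53 were followed through 8 lists. Of 141 compared, 63 were at least 2-fold lower, 2 higher and 76 within 2-fold, with a median log2 difference of -0.80. Beside these counts and those of each list below, 11.3% of all compared genes were lower and 9.05% higher. Several of these lists hold genes with tasks in resting cells too.

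Other kinetochore genes were lower in 20 of 30 cases, with a median of -1.34. Ska1, which helps the Ndc80 complex to hold on to the fibres, had 158 immature and 0 mature reads, at least 56.2-fold lower at the floor of 3 reads, and Cenph, of the inner kinetochore, was 34.5-fold lower (11.5 to 170.3). Other checkpoint and cohesion genes were lower in 6 of 10 cases, with a median of -1.68. Sgo1, the shugoshin that protects centromeric cohesion, was 24.9-fold lower (13.3 to 52.6), and Cdca5, which encodes the cohesion factor sororin, was 11-fold lower (7.13 to 17.6).

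Other spindle genes were split, with 13 of 26 lower, 2 higher and a median of -0.997. Tacc3, which strengthens spindle fibres, was 15.6-fold lower (11.9 to 20.9), and Ckap2l was 20.1-fold lower (14.6 to 28.5). The 2 higher genes were Clasp2, a stabiliser of microtubule ends in dividing and resting cells alike, 2.98-fold higher (2.68 to 3.31), and Numa1, which anchors spindle poles and is a nuclear protein outside mitosis, 2.26-fold higher (2.12 to 2.41). Clasp2 stood at 9.63 and 28.7 RPKM and Numa1 at 24.2 and 54.5 RPKM.

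Other genes of mitotic entry and exit were lower in 13 of 20 cases, with a median of -1.31. Cdkn3, a phosphatase of Cdk proteins, was 42.7-fold lower (16.4 to 159). Pbk, a mitotic kinase, had 116 immature and 1 mature reads and was 124-fold lower (21.8 to 4932), an interval widened by the single mature read. Condensin II and cohesin genes were lower in 4 of 12 cases, with a median of -0.46. Top2a, the topoisomerase that untangles sister chromatids, had 3882 immature and 282 mature reads, or 98.4 and 6.7 RPKM, and was 14.7-fold lower (13 to 16.6). Other cytokinesis genes were lower in 4 of 16 cases, among them Depdc1a, with 169 immature and 1 mature reads, and Depdc1b, with 86 immature and 1 mature reads, and the median was -0.32. Genes of centrosome duplication were lower in 3 of 14 cases, with a median of -0.56. Stil, which builds new centrioles, was 31.6-fold lower (18.6 to 58.4), and Plk3, a stress-response kinase, was 3.46-fold lower (2.93 to 4.1).

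For comparison, 34 of 47 DNA replication genes were lower, 1 was higher and 12 lay within 2-fold, with a median log2 difference of -1.57. Mcm5, a subunit of the replicative helicase, was 17.2-fold lower (13.9 to 21.6), and Rrm2, of nucleotide synthesis, was 61.9-fold lower (39.9 to 102). The higher gene, Gins3, was 2.79-fold higher (2.05 to 3.85). The summed reads of this list were 2.96-fold lower (2.89 to 3.04), beside 15.1-fold for the mitosis genes. Of 26 genes of G1 and of cell cycle exit, 11 were lower and 5 higher, with a median of -0.66. The cyclin gene Ccnd1 was 11-fold lower (8.59 to 14.2) and the repressor gene E2f8 was 10.4-fold lower (8.29 to 13.3). Genes of Cdk inhibitors were found on both sides. Cdkn2b was 5.55-fold higher (3.71 to 8.61) and Cdkn1b was 3.76-fold higher (3.07 to 4.64). Further inhibitor genes were named after their values were seen. Cdkn1a, at 167 and 337 RPKM, was 2.02-fold higher (1.92 to 2.12), and Cdkn2a was 2.41-fold higher (1.51 to 3.96). Cdkn2c and Cdkn2d were called lower, on few mature reads. Cdkn2c had 42 immature and 13 mature reads, or 4.96 and 1.44 RPKM, and was 3.45-fold lower (1.82 to 7). Cdkn2d had 22 immature and 5 mature reads, or 2.29 and 0.487 RPKM, and was 4.7-fold lower (1.74 to 15.9). Apart from Cdkn2b and Cdkn1b, the intervals of these inhibitor genes reach below 2-fold.

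**Figure D5:**
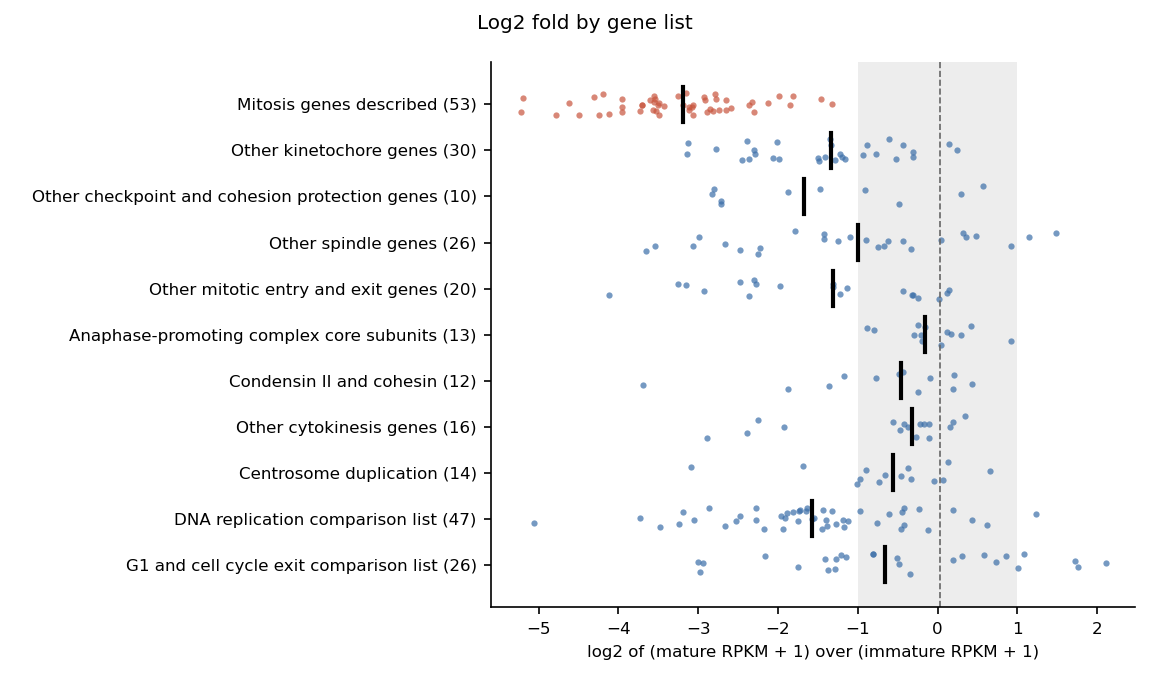
Log2 of (mature RPKM + 1) over (immature RPKM + 1) for each compared gene, by list, with the number of genes in parentheses and the median as a black bar. The grey band is within 2-fold and the dashed line is the median of all compared genes; the 53 mitosis genes (red) all lie left of the band, and the 13 core genes of the anaphase-promoting complex all lie inside it.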

How the data were processed

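The deposited tables list, per the file headers, unnormalised counts of uniquely placed reads per gene, model length, percent of it covered, and RPKM. The authors' RPKM equals reads per kilobase and per 1000000 counted reads within a relative deviation of 1.07e-07. The submitters' processing notes name build mm8. No source used here gives the aligner, counting tool or strandedness, so reads of overlapping genes may be shared. A gene missing from 1 table was taken as 0 reads. Symbols came from RefSeq (GRCm38.p6) for 16220 of 18090 entries.

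Intervals of ratios are Clopper-Pearson on the split of a gene's reads, and of shares Wilson (Python 3.11.15, scipy 1.17.1, statsmodels 0.14.6). Scaling factors of edgeR 4.0.16 and DESeq2 1.42.0 served only as alternatives. The steps were tested on simulated data. The members and lists were chosen with earlier results of these data known. Full values are given for the 2 largest and 2 smallest log2 differences of each role, members with 0 reads, and the 5 with most immature reads, and in other lists for up to 2 genes per direction. Values of further members, and of genes marked as named after their values were seen, are given as well.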

Additional observations from a re-analysis of the deposited data

How the results depend on the processing

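The count of 53 lower mitosis genes was 53 with a pseudocount of 0.1 or 5 RPKM, with a filter of 5 RPKM or none, under a common sum of RPKM, edgeR or DESeq2 scaling, and with the counting interval as the criterion. It was 48 at 4-fold, and 49 of 49 when genes with under 50% of the model covered were dropped. Over all compared genes the lower share was 14.4% (pseudocount of 0.1 RPKM), 5.94% (5 RPKM), 12.1% (filter of 5 RPKM) and 7.24% (no filter). Under the scalings it was 10.1% (common sum), 12% (edgeR) and 11.3% (DESeq2). By the counting interval it was 8.67%, at 4-fold 2.74%, and with the coverage filter 12%. A pseudocount of 0.1 RPKM gave a median log2 difference of the members of -4.24, and 5 RPKM gave -2.06, because the pseudocount sets the scale of low values. The median lay between -3.25 and -3.12 under the scaling, filter and coverage alternatives. The median plain fold, with 0 reads at the floor, was 20.3, and between 19.1 and 20.8 under 3 scalings. Lower genes in the other mitosis lists numbered 35 in place of 63 both with a pseudocount of 5 RPKM and at 4-fold, where the higher ones numbered 0 in place of 2. The share of reads was 13.6-fold lower without Mki67, an alternative chosen after seeing the data, as was leaving out the thinly covered members. No paired analysis was possible because each state has 1 library. For the same reason no library could be left out, and the spread between cultures is unknown. With a median of 21 mature reads per member, counting limits the order of the members.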
